A study of Mus musculus with 15 samples.

Results

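Sertoli-marker cells were taken from dissociated mouse testes as the single cells that held RNA of Sertoli cells and little RNA of sperm. A cell was kept when it had at least 500 genes, at least 1000 unique molecular identifiers (UMIs, each standing for 1 captured RNA molecule) and under 30% of its UMIs on mitochondrial genes. A kept cell met the rule when a UMI was found on at least 3 of the 8 markers Clu, Defb19, Aard, Rhox8, Amhr2, Cst9, Wt1 and Sox9, and when the 4 sperm transcripts Prm1, Prm2, Tnp1 and Tnp2 together made up under 10% of its UMIs. The rule was met by 3342 of 76494 kept cells, out of 101610 barcodes. A UMI on Clu or on Fshr, the receptor of follicle-stimulating hormone, was present in 1907 of them (Clu/Fshr+ cells) and absent from 1435 (Clu/Fshr- cells). Because these genes chose the cells, their values are given as a description and without a test.

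Single-cell RNA-seq was performed on 15 DBA/2J testes, 1 testis and 1 library from each mouse, in 5 groups of 3. JQ1, a small molecule that occupies the bromodomains of the BET proteins, was given by daily intraperitoneal injection at 50 mg/kg over 3 wk. Testes were collected at the end of dosing from mice 10 wk old (T) or 6 wk after the last dose from mice 16 wk old (R), beside mice given vehicle at 10 wk (VC-T) and 16 wk (VC-R) and untreated mice (UC) of 15 wk. The drug reached the whole animal, so a response of these cells to JQ1 and to changed germ cells cannot be told apart here, nor can treatment, injection and age in the comparisons with UC.

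Sertoli cells are the somatic nurse cells of the seminiferous tubule. They receive the hormonal signals of spermatogenesis from the pituitary and from Leydig cells, close the tubule with the junctions of the blood-testis barrier, feed germ cells with lactate and iron, and engulf the residual bodies and dying germ cells that spermatogenesis leaves behind. Of the BET proteins, BRDT is made by male germ cells, whereas BRD2 and BRD3 are widely expressed.

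The rule and the split set a high detection of the markers in Clu/Fshr+ cells. The shares here are therefore a description, given beside those in cells with spermatocyte markers. Over the 15 libraries, the median share of Clu/Fshr+ cells with a UMI was 99.2% for Defb19, a beta-defensin, 92.3% for Aard, 67.9% for the homeobox gene Rhox8, 61.5% for Amhr2, the receptor of anti-Müllerian hormone, 44.0% for the cystatin Cst9, 28.9% for Wt1 and 19.2% for Sox9, both transcription factors of the Sertoli lineage. Nearly all Clu/Fshr+ cells owed their class to Clu, which was detected in a median of 99.6% of them, whereas Fshr was detected in 17.1%. In the 19823 kept cells with at least 3 of 7 spermatocyte markers and under 10% sperm transcripts, the medians were 13.7% for Defb19, 4.18% for Aard and 3.25% for Clu. Those spermatocyte-marker cells were deeper, with a median of 5258 UMIs against 2107 in Clu/Fshr+ cells. They are not free of Sertoli RNA, since some of them met the rule too, 206 of 2055 in R 3.

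Other genes known from Sertoli cells, which the rule did not use, were high in the same cells. Against all other kept cells, averaged over the 5 groups, 2134 genes outside the rule were at least 4 times higher in Clu/Fshr+ cells; they are called Sertoli-enriched here and are a description, since the cells were chosen by their RNA. Among the highest were Mageb18 at 167 times, Cst12, a cystatin, at 95.8 times, Ctsl, a lysosomal and secreted protease, at 89.4 times, Cldn11, a claudin of the blood-testis barrier, at 75.9 times, and Inha, the inhibin alpha subunit, at 75.3 times. Inha was detected in a median of 44.2% of Clu/Fshr+ cells and 1.37% of spermatocyte-marker cells, Ctsl in 77.8% and 12.0%, and Cldn11 in 31.0% and 0.514%. Mitochondrial genes took a median of 5.46% of the UMIs of a Clu/Fshr+ cell and 0.263% of those of a cell that did not meet the rule.

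The rule did not give pure Sertoli cells. Markers of another testis cell class (at least 3, or 2 for endothelial cells) were found in 1400 of the 1907 Clu/Fshr+ cells, or 73.4%, and in 1115 of the 1435 Clu/Fshr- cells, or 77.7%. In Clu/Fshr+ cells the other class was the spermatozoon for 1192, the spermatid for 478, the spermatocyte for 337 and the Leydig cell for 105, with some cells counted for several classes. The cells are therefore called by their rule.

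Clu is 1 of the 8 counted markers, so the share of cells with Clu or Fshr rises with the marker count by construction, and the values here are a description. Of the 1364 cells with 3 markers, 33.2% carried Clu or Fshr, against 54.3% of the 827 cells with 4, 75.3% of the 519 with 5 and 94.9% of the 334 with 6. Clu/Fshr- cells were also shallower, with a median of 1531 UMIs, and the 8 markers took 3333 of each 1000000 UMIs (3333 CPM) in them against 6420 CPM in Clu/Fshr+ cells, a gap that the split sets in part, since Clu is at 0 in Clu/Fshr- cells. Just inside the rule, cells with 3 markers held 1909.9 CPM of marker RNA, and just outside it the 1877 cells with 2 markers and under 10% sperm transcripts held 601. At the other edge, the 114 cells with 8% to under 10% sperm transcripts held 3053 and the 112 excluded cells with 10% to under 12% held 2834. A further 1447 kept cells, late haploid cells by their RNA, had at least 3 Sertoli markers but 10% or more sperm transcripts and stayed outside the rule, with a median of 6692 UMIs.

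Libraries ranged from 9673587 to 98724982 UMIs. Kept cells shared 745 barcodes between libraries, at most 31 for any pair, and no barcode was shared among the Sertoli-marker cells themselves. The library labelled VC-T 1 stood apart from its group and lay with T in its sperm RNA. In its kept cells that did not meet the rule, the 4 sperm transcripts summed to 739 CPM, between the 389 and 1303 CPM of the T libraries and far below the 108097 and 114479 of VC-T 2 and VC-T 3. It gave 10 Sertoli-marker cells, with 503 CPM of the sperm transcripts in the Clu/Fshr+ cells against 16216 and 13756 in VC-T 2 and VC-T 3. It was left out of the gene comparisons, as in the study's own differential expression, and the shares of T are given with and without it. Each library is 1 mouse, cells are not replicates, and p-values measure the spread between mice.

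How often Sertoli-marker cells were recovered differed widely between libraries of 1 group. They made up 1.01%, 0.251% and 2.18% of kept cells in T 1 to T 3, 0.172%, 8.52% and 3.93% in VC-T 1 to VC-T 3, and 5.44%, 5.89% and 11.3% in R 1 to R 3. In VC-R they were 0.634%, 2.93% and 1.54%, and in UC 0.945%, 1.49% and 2.45%. Every R library lay above every VC-R and UC library, while T lay within the range of its controls. The low end of that range was VC-T 1, and without it T 2 was below every control of T. Exact Clopper-Pearson 95% intervals, which cover counting error only, were 0.120 to 0.460% for the 10 cells of T 2, 0.643 to 1.34% for the 31 cells of UC 1 and 10.8 to 11.9% for the 1528 cells of R 3.

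The mean share in R was 7.56% ± 3.29 (SD, n = 3), and in UC and VC-R together it was 1.67% ± 0.877 (SD, n = 6), a difference of 5.89 points. An exact permutation test on both sides gave p = 0.0238, the smallest that 3 libraries against 6 allow, and 0.119 after Benjamini-Hochberg adjustment over the 10 tests of this kind. For T the mean was 1.15% ± 0.972 (SD, n = 3), and in UC and VC-T it was 2.92% ± 3.04 (SD, n = 6). That difference of -1.77 points gave an exact permutation p of 0.357 and an adjusted p of 0.595. Without VC-T 1 the control mean was 3.47% ± 3.04 (SD, n = 5), with an exact permutation p of 0.179 and an adjusted p of 0.357. Counting Clu/Fshr+ cells alone, R held 2.70%, 3.00% and 5.76% of kept cells against 0.297 to 1.84% in its 6 controls (exact permutation p = 0.0238, adjusted p = 0.119).

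Sertoli markers were also found more often in the spermatocyte-marker cells of R than in those of UC. Among spermatocyte-marker cells, at least 3 Sertoli markers were detected in 4.12%, 5.32% and 10.0% in R 1 to R 3, at median depths of 12213, 9589 and 10383 UMIs, and in 0.964 to 2.92% in UC, at 6787 to 8536 UMIs. The share was 0.760%, 2.70% and 1.29% in VC-R 1 to VC-R 3 and 0.109%, 6.43% and 4.04% in VC-T 1 to VC-T 3. Such cells meet the rule themselves, so they are part of the share of Sertoli-marker cells and not a separate background. The share of rule-meeting cells among kept cells was above the share among spermatocyte-marker cells in 11 of the 15 libraries. These included all of R, and in 4 libraries it was not above. How far Sertoli RNA carried by other cell types raised the R share was not tested.

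The R share was smaller under stricter rules. Without the cells that carried markers of another class, it was 1.50% ± 0.318 (SD, n = 3), and in its controls 0.781% ± 0.622 (SD, n = 6), with an exact permutation p of 0.119. With each cell thinned to 1000 UMIs, R held 5.09% ± 1.96 and its controls 1.20% ± 0.774 (exact permutation p = 0.0238). Under a limit of 2% on sperm transcripts, R held 1.75% ± 0.281 and its controls 1.27% ± 0.874 (exact permutation p = 0.429).

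Among the Sertoli-marker cells, the share with Clu or Fshr varied little within R and within T and widely among the controls. Clu/Fshr+ cells were 49.7%, 51.0% and 50.8% of the Sertoli-marker cells in R 1 to R 3, and 88.1%, 90.0% and 92.9% in T 1 to T 3. They were 48.4%, 76.1% and 75.2% in UC, 46.9%, 57.7% and 91.1% in VC-R and 90.0%, 65.0% and 86.2% in VC-T. For T against its controls the exact permutation p was 0.0714 and the adjusted p 0.238, and for R the exact permutation p was 0.238 and the adjusted p 0.476. Without VC-T 1, T was compared with a control mean of 70.2% ± 14.3 (SD, n = 5), with an exact permutation p of 0.0357 and an adjusted p of 0.119.

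The mean depth of the Clu/Fshr+ cells did not separate treated from control mice. In T they averaged 3973 UMIs ± 2329 (SD, n = 3), and R averaged 4614 ± 771 (SD, n = 3). Their controls averaged 3763 ± 1288 and 4352 ± 2090 (SD, n = 6 each), with exact permutation p-values of 0.881 and 0.714. The median cell was shallower in every R library, at 1760.5, 1780 and 2023.5 UMIs, than in UC, at 2658, 2823 and 3295.5. In VC-R the medians were 1972, 3408 and 2195, and the medians were not tested. In T the mitochondrial share of Clu/Fshr+ cells was 4.19% ± 1.54 (SD, n = 3), and 7.07% ± 2.07 (SD, n = 6) among its controls, with an exact permutation p of 0.119 and an adjusted p of 0.298.

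**Figure D1:**
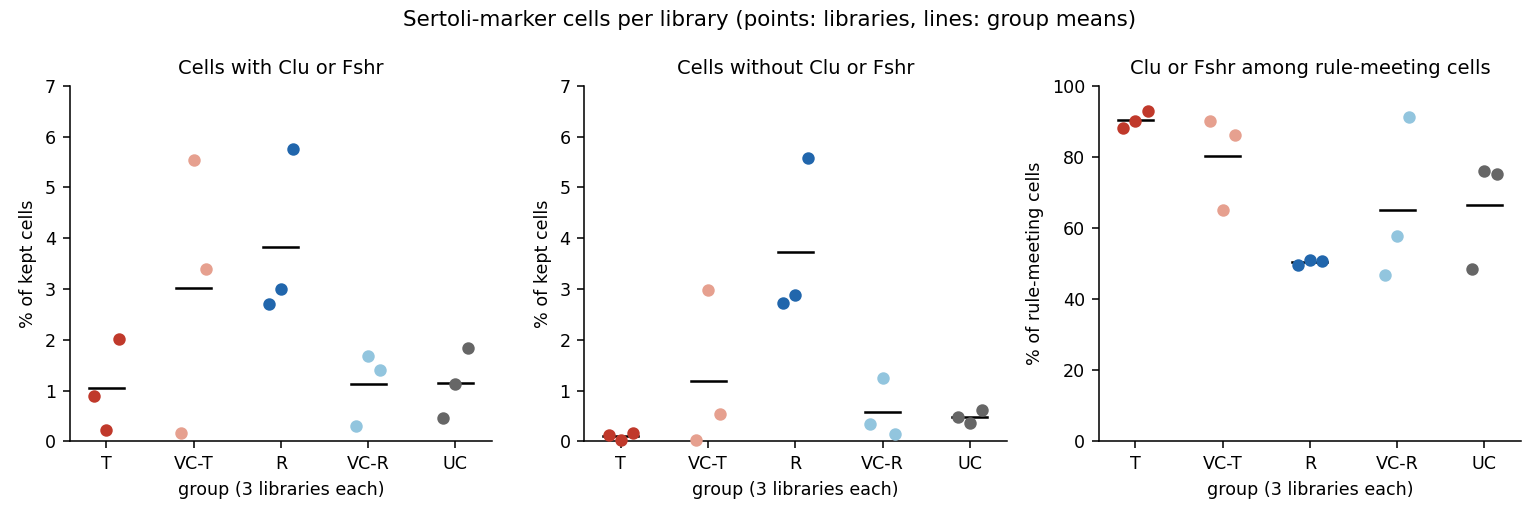
Sertoli-marker cells in each library, as Clu/Fshr+ and Clu/Fshr- cells in percent of kept cells and as Clu/Fshr+ cells in percent of the Sertoli-marker cells, with points for libraries and lines for group means. R 3 is highest of the R libraries for Clu/Fshr+ cells at 5.76% of kept cells, and the 3 R libraries lie together between 49.7% and 51.0% on the last scale.

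Within Clu/Fshr+ cells, genes of the rule were at lower levels in R than in UC. UMIs were summed over the Clu/Fshr+ cells of each library and are given as CPM of that sum. Clu, a secreted chaperone, lay at 974, 1054 and 651 CPM in R 1 to R 3 and at 1491, 3327 and 4025 in UC 1 to UC 3. Amhr2 lay at 224, 275 and 147 in R and at 663, 866 and 977 in UC. Wt1 lay at 58.4, 52.1 and 27.4 in R and at 62.1, 203 and 262 in UC. For these 3 genes all R libraries were below all UC libraries, with UC 1 the closest to R. Not all 9 genes separated the libraries. Fshr was detected in 0% of the Clu/Fshr+ cells of UC 1, 17.1% in UC 2 and 32.9% in UC 3, against 2.96 to 6.32% in R. Defb19 was slightly higher in R 1 than in UC 1.

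The fitted log2 fold changes of R against UC were -2.85 for Fshr, -2.31 for Wt1, -2.24 for Sox9, -1.98 for Amhr2, -1.73 for Clu, -1.26 for Cst9, -0.88 for Aard, -0.77 for Defb19 and -0.47 for Rhox8. In the other kept cells of the same libraries the same 9 genes had log2 fold changes above 0. So by these fits the marker RNA was lower inside the chosen cells and higher outside them. The change inside was smallest for Rhox8, with an SE of 0.30. The rule admits a cell on any 3 markers, and how far this sets the levels was not tested.

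The sum over the 8 markers put the libraries in a like order. It was 5823, 5112 and 3841 CPM in the Clu/Fshr+ cells of R 1 to R 3, 6749, 12292 and 12531 in UC 1 to UC 3, and 4726, 6287 and 11984 in VC-R 1 to VC-R 3. In T it was 7962, 2779 and 11057, and in VC-T 10068, 10739 and 13637. UC 1 and VC-R 1 were the lowest of their groups, and each gave only 15 Clu/Fshr+ cells. T 2, the lowest of all, gave 9, with a median of 3 markers a cell.

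**Figure D2:**
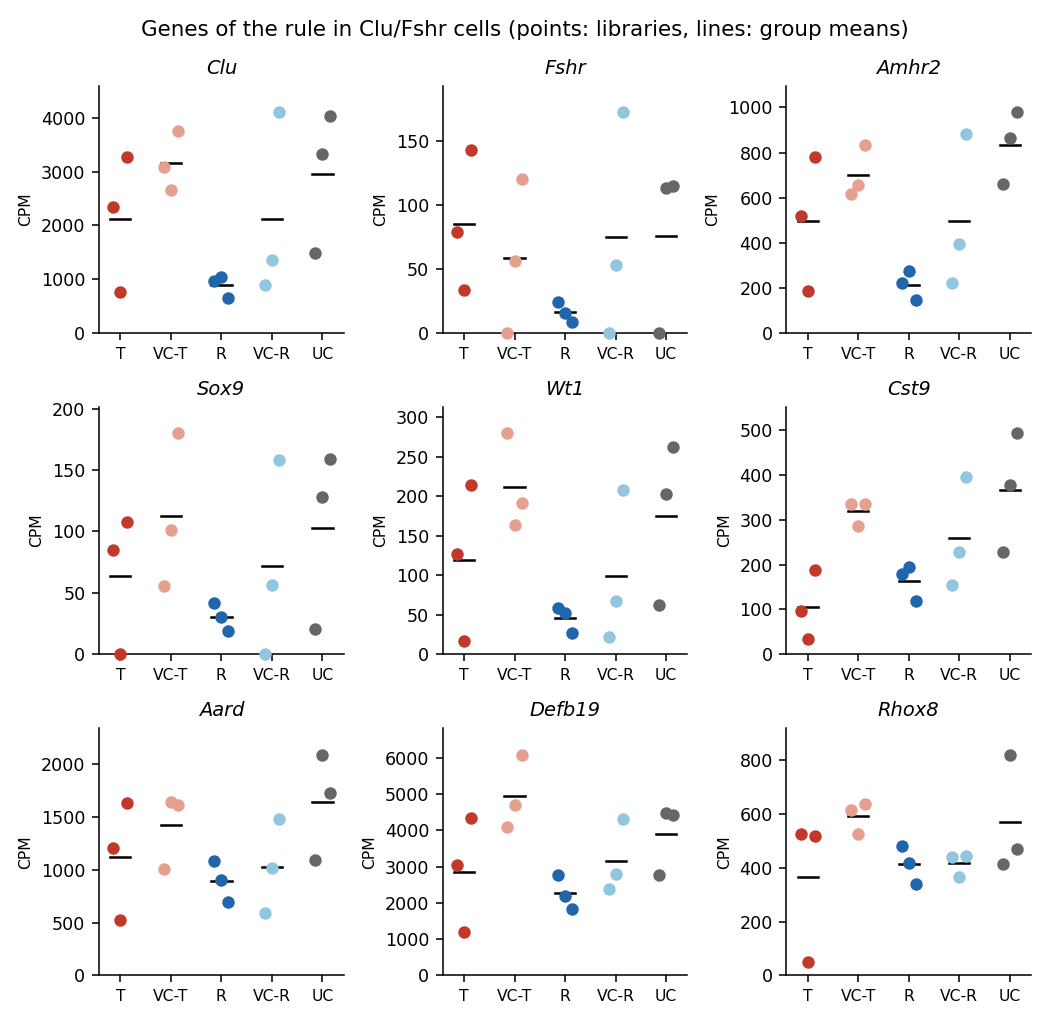
Levels of the 8 markers and Fshr in the Clu/Fshr+ cells of each library, in CPM of the summed cells, with points for libraries and lines for group means. Clu lies between 651 and 1054 in R and between 1491 and 4025 in UC, and T 2 is the lowest T library for Clu at 775.

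R was compared with UC to ask whether gene expression had returned to the untreated state 6 wk after the drug. The calls follow the cutoffs of the study, an adjusted p below 0.05 with more than a 2-fold change either way. Of 8358 genes tested in Clu/Fshr+ cells, 1696 were called, or 20.3%, with 1181 lower in R (14.1%) and 515 higher (6.16%). Of the 1292 Sertoli-enriched genes tested, 844 were lower and 8 higher. The set was chosen from these same cells, with R and UC among the 5 groups averaged, so these counts are a description. How far the choice of the set shapes this split was not tested. Their median log2 fold change was -1.48, against 0.08 over all genes tested and 0.20 for the same genes in the other kept cells, and the difference between the cell populations was not tested.

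The libraries behind this comparison were unequal in depth. The summed Clu/Fshr+ cells held 736402, 1056091 and 4201659 UMIs in R and 48301, 132852 and 339647 in UC, so that 1 UMI in UC 1 was worth 20.7 CPM and a count of 0 there allowed up to 62.1. Several low levels in UC 1 therefore rest on few UMIs, and a lack of overlap with UC 1 is weak for such genes. The share of all genes tested that do not overlap between R and UC is not given, so a lack of overlap in named genes is a description only. Without UC 3, the deepest UC library, 323 genes were called, without R 3 786 and without UC 1 3291.

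Markers of other cell classes differed between R and UC in both directions. Cells with markers of another class were 990 of 1198 Clu/Fshr+ cells in R, or 82.6%, and 71 of 132 in UC, or 53.8%. The 7 spermatocyte markers summed to 1461 to 1754 CPM in R and 467 to 898 in UC, without overlap, and 4 of the 7 were called higher. Of the 6 spermatid markers 1 was called higher, whereas of the 3 spermatogonium markers tested 2 were called lower, Uchl1 and Dmrt1, the second of which Sertoli cells also express. The 5 spermatozoon markers summed to 3532 to 5608 in R and 1734 to 5362 in UC, and the 5 Leydig markers to 1422 to 3503 and 145 to 2619, and none of either was called. Macrophage markers summed to 7.58 to 258 in R and 0 to 14.7 in UC, with 2 of 5 at 0 in every UC library, and the 4 myoid markers to 12.2 to 25.6 and 41.4 to 150.2, where Timp3, the only one tested, was called lower with a log2 fold change of -2.70.

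The part of this RNA in the result was not tested. In sums over such cells, a Sertoli cell with less of its own RNA and a mixture with more RNA of other cells cannot be told apart. Without every cell that carried markers of another class, which also took UC 1 below the minimum of 5 cells and left 3 libraries against 2, 1125 of 2342 genes tested were called, with 588 higher and 537 lower. Of the genes of the 14 function lists described next, 33 of 69 tested were then lower and 4 higher.

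**Figure D3:**
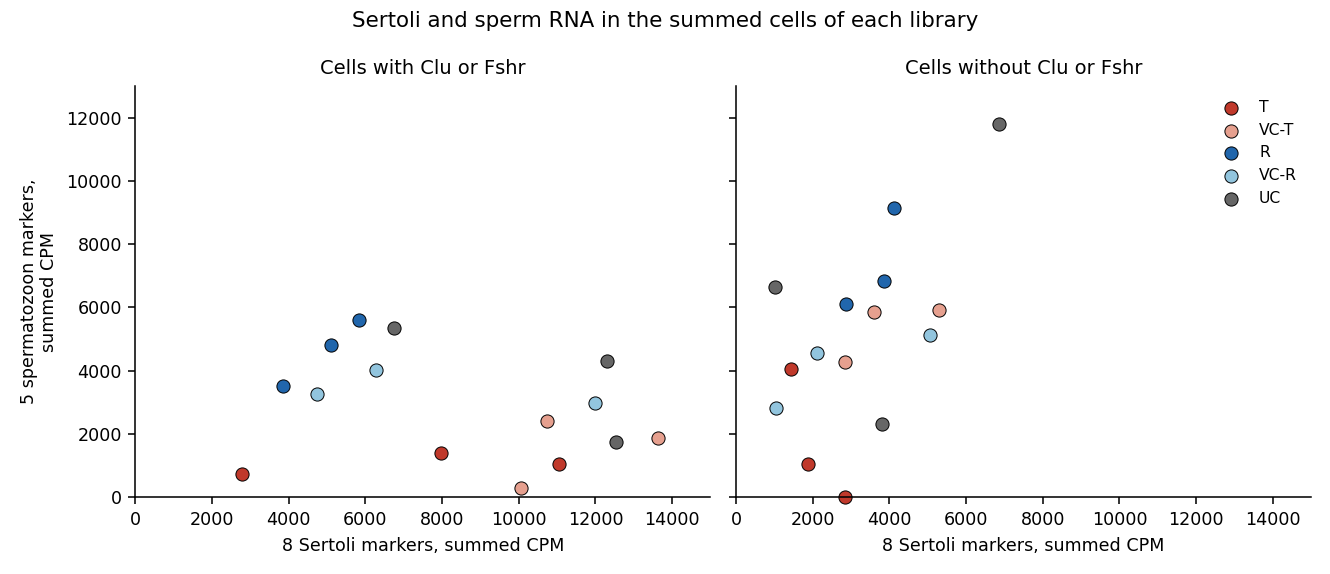
Summed CPM of the 8 Sertoli markers (horizontal) and the 5 spermatozoon markers (vertical) in the Clu/Fshr+ and Clu/Fshr- cells of each library, 1 point a library. In Clu/Fshr+ cells the R libraries lie at 3841 to 5823 CPM of Sertoli markers, below the 6749, 12292 and 12531 of UC 1 to UC 3.

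Genes of Sertoli cell functions were grouped in 14 lists. Over all lists, 145 genes were tested in R against UC, of which 63 were lower and 6 higher, and 109 had a log2 fold change below 0, with a median of -0.94 against 0.08 over all genes. Without UC 3, 28 of 158 list genes were lower and 0 higher, and without R 3, 43 of 140 were lower and 2 higher. Without UC 1, 85 of 169 were lower and 13 higher. Each list's count stands beside the 14.1% lower and 6.16% higher of all genes tested. It also stands beside the Sertoli-enriched genes, of which 844 of 1292 were lower and 8 higher. Whether any list differs from that set was not tested.

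Of the genes of hormone response, 5 of 6 tested were lower and none higher, with a median log2 fold change of -1.57. Inha (chr1:75507077-75510366, GRCm38), the subunit shared by the inhibins that restrain follicle-stimulating hormone, lay at 77.4, 105 and 65.0 CPM in R and at 207, 444 and 471 in UC. Inhbb (chr1:119415465-119422248), the beta subunit of inhibin B, lay at 14.9, 11.4 and 7.38 in R and at 41.4, 158 and 106 in UC. Neither gene overlapped between the groups. Inha was 4.93-fold lower (log2 fold change -2.30 ± 0.30 SE, edgeR adjusted p = 0.000229) and Inhbb 11.6-fold lower (edgeR adjusted p = 0.000185), while Inha had a log2 fold change of 1.07 in the other kept cells.

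Rhox5, a homeobox gene that responds to testosterone, was 2.45-fold lower (edgeR adjusted p = 0.0224) and Igf1r, the receptor of insulin-like growth factor 1, 2.89-fold lower (edgeR adjusted p = 0.0144). Gnas, which couples the hormone receptor to cyclic AMP, had a log2 fold change of -0.72 and did not pass.

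Transcription factors of the lineage were lower in 7 of 8 tested, Rhox5 again among them, with a median of -1.90. Gata4, which acts in Sertoli cells from their first specification, lay at 32.6, 33.1 and 16.9 CPM in R and at 41.4, 120.4 and 106 in UC, 4.09-fold lower without overlap (edgeR adjusted p = 0.00193). Dmrt1, which keeps the male fate and also marks spermatogonia, was 5.52-fold lower (edgeR adjusted p = 0.000839). Etv5, which supports spermatogonial stem cells, was 3.91-fold lower (edgeR adjusted p = 0.0112), and Nr0b1, an orphan nuclear receptor, 3.55-fold lower (edgeR adjusted p = 0.00185). Nr5a1, a steroidogenic regulator shared with Leydig cells, had a log2 fold change of -1.14 and did not pass.

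Ligands by which Sertoli cells reach other cells were lower for 3 of 5 tested, with a median of -1.85, Inhbb among them. Kitl (chr10:100015630-100100416), the ligand of KIT on differentiating spermatogonia, lay at 51.6, 35.0 and 34.3 in R and at 82.8, 82.8 and 188 in UC, 3.60-fold lower without overlap (edgeR adjusted p = 0.00148). Dhh, the hedgehog ligand that acts on Leydig and myoid cells, was 5.03-fold lower (edgeR adjusted p = 0.00229). Gdnf, the ligand for stem cells, was too low to test, at 0, 0 and 0.476 in R and 0, 7.53 and 2.94 in UC.

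Of the genes of the blood-testis barrier and the junctions around it, all 17 tested were below 0, with a median of -1.81, and 12 were lower. Cldn3 (chr5:134986214-134987472), a claudin of the forming barrier, lay at 10.9, 12.3 and 8.57 CPM in R and at 62.1, 128 and 103 in UC, 10.5-fold lower (log2 fold change -3.39 ± 0.35 SE, edgeR adjusted p = 0.000138). Cldn11 (chr3:31149920-31164324), the main claudin of the mature barrier, lay at 51.6, 51.1 and 35.9 in R and at 104, 271 and 250.3 in UC, 5.20-fold lower (edgeR adjusted p = 0.000202). For both claudins no R library reached the lowest UC library.

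Proteins that tie these strands to the cell and to its neighbours were lower as well. Tjp1, a scaffold of tight junctions, lay at 81.5, 81.4 and 55.7 in R and at 166, 294 and 580.0 in UC, 5.49-fold lower without overlap (edgeR adjusted p = 0.000288). Cgn, or cingulin, was 5.48-fold lower (edgeR adjusted p = 0.000243) and F11r, a junctional adhesion molecule, 7.35-fold lower (edgeR adjusted p = 0.000363). Espn and Nectin2, which serve the ectoplasmic specialization that holds spermatids, were 3.66-fold and 3.51-fold lower (edgeR adjusted p = 0.00353 and 0.00121). Gja1, the connexin of Sertoli gap junctions, was 3.75-fold lower (edgeR adjusted p = 0.00455). The integrins Itgb1 and Itga6 and the adhesion molecule Jam2 were 3.33-fold, 4.94-fold and 2.92-fold lower (edgeR adjusted p = 0.000949, 0.00414 and 0.0344). Cdh2, Ctnnb1, Jam3 and Afdn had log2 fold changes from -0.94 to -0.60 and did not pass.

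Among secreted proteins and metal transport, 7 of 13 genes were lower, with a median of -1.21. Trf (chr9:103204001-103230444), the transferrin that carries iron to germ cells, lay at 6.79, 12.3 and 9.28 CPM in R and at 62.1, 82.8 and 70.7 in UC, 7.49-fold lower without overlap (edgeR adjusted p = 0.000202). Ctsl (chr13:64359337-64370890) lay at 576, 821 and 427 in R and at 1511, 3907 and 3409 in UC, 4.86-fold lower without overlap (edgeR adjusted p = 0.000812). Cst12 was 2.92-fold lower (edgeR adjusted p = 0.00373), Serpina5, a protease inhibitor, 2.32-fold lower (edgeR adjusted p = 0.00465), and Sparc, a matrix protein, 2.54-fold lower (edgeR adjusted p = 0.0328). Fth1 and Ftl1, the ferritin chains that store iron in most cells, had log2 fold changes of 0.01 and 0.16 and did not pass, with Fth1 at 1090.4, 1275 and 1255 in R and 932, 1671 and 1030.5 in UC.

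**Figure D4:**
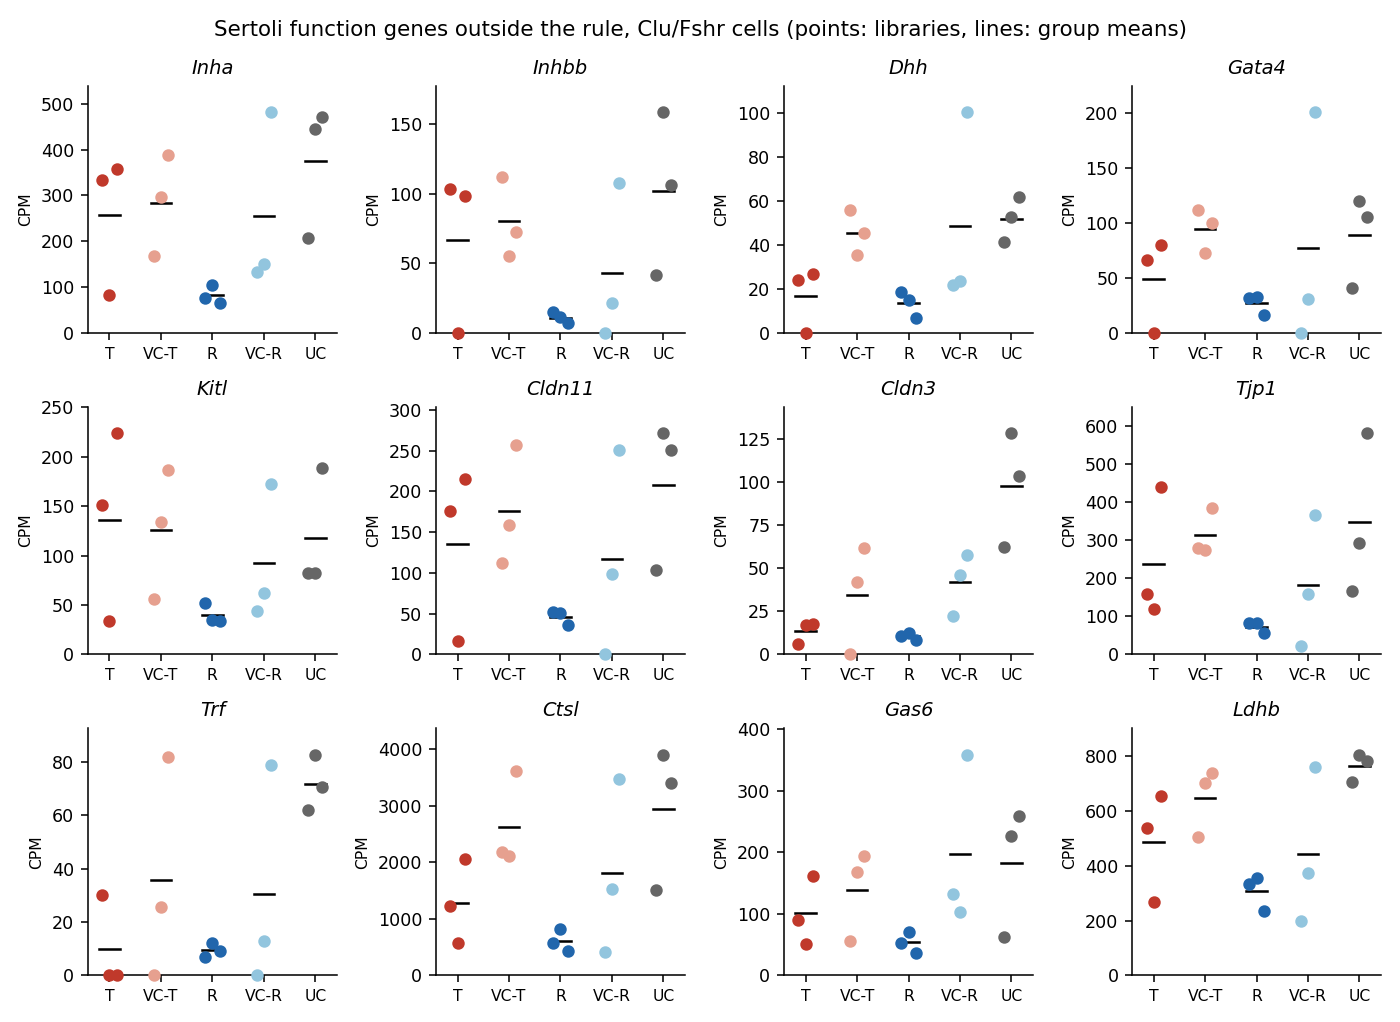
Levels of 12 Sertoli function genes that the rule did not use in the Clu/Fshr+ cells of each library, in CPM of the summed cells, with points for libraries and lines for group means. Ctsl lies between 427 and 821 in R and between 1511 and 3907 in UC, and T lies between 573 and 2058.

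Of the genes of phagocytosis and the lysosome, 10 of 22 tested were lower and none higher, with a median of -0.94. Axl and Tyro3, receptors for dying cells, were 6.73-fold and 5.02-fold lower (edgeR adjusted p = 0.00129 and 0.000616), and their bridging ligands Gas6 and Pros1 4.19-fold and 3.20-fold lower (edgeR adjusted p = 0.000763 and 0.00550). Gas6 lay at 53.0, 71.0 and 36.9 CPM in R and at 62.1, 226 and 259 in UC, so that R 2 was above UC 1. Dock1 and Elmo1, which drive engulfment, were 8.13-fold and 4.04-fold lower (edgeR adjusted p = 0.000202 and 0.00157), and Scarb1, a receptor for apoptotic germ cells and lipoproteins, 2.71-fold lower (edgeR adjusted p = 0.00775).

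At the lysosome, Lgmn, a protease, was 5.12-fold lower (edgeR adjusted p = 0.000202) and Psap, the precursor of saposins, 3.56-fold lower (edgeR adjusted p = 0.00130). Atg5, of the autophagy machinery, was 2.48-fold lower (edgeR adjusted p = 0.0371). Lamp1, Ctsb and Lamp2, which most cells use, had log2 fold changes of -0.03, -0.29 and -0.53 and did not pass.

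Genes of lactate supply went both ways, with 3 lower and 1 higher of 13 and a median of -0.35. Ldhb, the B subunit of lactate dehydrogenase, lay at 334, 355 and 234 CPM in R and at 704, 805 and 783 in UC, 2.48-fold lower without overlap (edgeR adjusted p = 0.00316). Pkm, the pyruvate kinase of glycolysis, was 2.06-fold lower (edgeR adjusted p = 0.0101) and Hk2, a hexokinase, 3.20-fold lower (edgeR adjusted p = 0.0101). Hk1, a hexokinase that sperm also use, was 2.17-fold higher (edgeR adjusted p = 0.0174), at 216, 182 and 151 in R and 41.4, 82.8 and 94.2 in UC. Ldha, the A subunit, and the glucose transporter Slc2a3 had log2 fold changes of 0.58 and 0.70 and did not pass.

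Lipid genes were also divided, with 4 lower, Scarb1 among them, and 2 higher of 15 and a median of 0.24. Npc2, for cholesterol export from the lysosome, Acsl4, for long fatty acids, and Scd2, a desaturase, were 2.25-fold, 3.79-fold and 2.36-fold lower (edgeR adjusted p = 0.00381, 0.00641 and 0.0378). Apoe, a lipoprotein, lay at 373, 295 and 483 in R and 41.4, 203 and 70.7 in UC, 3.57-fold higher (edgeR adjusted p = 0.00455). Cd36, a fatty acid and scavenger receptor, was called higher (edgeR adjusted p = 0.0258), at 20.4, 36.0 and 29.0 in R and 0, 15.1 and 0 in UC, where it rested on 2 UMIs. The ratio of its pooled levels was 7.60, with an exact counting interval of 2.07 to 63.3. Apoe and Cd36 had log2 fold changes of 0.90 and 1.32 in the other kept cells.

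Cytoskeletal genes were lower in 6 of 10, with a median of -1.25. Tubb3, Tuba1a and Tuba1b, tubulins, were 4.69-fold, 3.43-fold and 2.75-fold lower (edgeR adjusted p = 0.000288, 0.000686 and 0.00163). Eps8 and Actn4, which cap and bundle actin, were 4.29-fold and 2.06-fold lower (edgeR adjusted p = 0.00212 and 0.0324). Vim, the intermediate filament of Sertoli cells, lay at 115, 122 and 114 CPM in R and at 145, 406 and 353 in UC, 2.79-fold lower without overlap (edgeR adjusted p = 0.00213). Actb and Actg1, the cytoplasmic actins, had log2 fold changes of -0.71 and -0.31 and did not pass. Of 8 genes of immaturity and proliferation, Cdkn1a and Cdkn1b, which restrain the cell cycle, were 4.12-fold and 3.27-fold lower (edgeR adjusted p = 0.00122 and 0.00240) and the others did not pass. Amh, a mark of immature Sertoli cells, was too low to test, between 0 and 5.89 in R and UC.

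Of 10 BET proteins and response genes tested, 2 were lower and none higher, with a median of -0.54. Hexim1, an inhibitor of the elongation factor P-TEFb that responds to BET inhibitors, was 3.29-fold lower (edgeR adjusted p = 0.0233), and Cdkn1a is the other. Brd2, Brd3 and Brdt had log2 fold changes of 0.11, -0.34 and 0.76 and did not pass. Brd2 lay at 147, 129.7 and 154 CPM in R and at 145, 97.9 and 153 in UC.

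Immediate early genes, which also respond to tissue dissociation, and heat shock genes were lower for 5 and higher for 2 of 13. Fosb, a subunit of the AP-1 factor, lay at 10.9, 2.84 and 6.66 CPM in R and at 20.7, 60.2 and 70.7 in UC, 9.26-fold lower without overlap (edgeR adjusted p = 0.000292). Its level in UC 1 rested on 1 UMI. Jun and Junb, of the same factor, and Ier2 were 3.71-fold, 2.55-fold and 4.84-fold lower (edgeR adjusted p = 0.00891, 0.0135 and 0.00122), and the chaperone gene Hspa8 2.36-fold lower (edgeR adjusted p = 0.00526). Klf4, a zinc finger factor, was 2.82-fold higher (edgeR adjusted p = 0.0290). Klf2, of the same family, was called higher (edgeR adjusted p = 0.0105), at 19.0, 20.8 and 27.8 in R and 0, 0 and 2.94 in UC, where it rested on 1 UMI, and its ratio of pooled levels was 13.3, with an exact counting interval of 2.35 to 528.

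Retinoid genes gave 1 of 5, Rara, a retinoic acid receptor, which was 2.95-fold lower (edgeR adjusted p = 0.00621). Of 5 genes of antigen presentation and interferon, 1 was lower and 1 higher. The higher gene was B2m, the light chain of class I molecules, at 2.83-fold higher (edgeR adjusted p = 0.0252). B2m had a log2 fold change of 1.15 in the other kept cells.

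Beyond the lists, the Sertoli-enriched genes with the smallest adjusted p were led by Slc35f2, a solute carrier. It lay at 4.07, 3.79 and 3.33 CPM in R and at 20.7, 52.7 and 82.4 in UC, 18.0-fold lower (log2 fold change -4.17 ± 0.43 SE, edgeR adjusted p = 0.000138). Enpp2, which makes lysophosphatidic acid, was 14.4-fold lower (edgeR adjusted p = 0.000191), Nhs, a regulator of actin and cell shape, 12.5-fold lower (edgeR adjusted p = 0.000138), Ptprg, a receptor phosphatase, 11.4-fold lower (edgeR adjusted p = 0.000138), and Prickle1, a planar polarity gene, 10.2-fold lower (edgeR adjusted p = 0.000185). For these 5 genes no R library reached the lowest UC library, which for Slc35f2 was UC 1 with 1 UMI. The genes were picked by adjusted p in this same comparison, so the lack of overlap is a description. Map4k4, a kinase, Sh3d19 and Gm2044 were 8.19-fold, 8.32-fold and 8.80-fold lower (edgeR adjusted p = 0.000202, 0.000185 and 0.000138).

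Outside the Sertoli-enriched set, the lower genes with the smallest adjusted p began with Acaca, the first enzyme of fatty acid synthesis, which was 4.40-fold lower (edgeR adjusted p = 0.000356). Scn8a, a sodium channel, and Slc43a2, an amino acid carrier, were 9.51-fold and 5.97-fold lower (edgeR adjusted p = 0.000446 and 0.000616), and Slc4a7, a bicarbonate carrier, and Mgat5, a glycosyltransferase, 3.72-fold and 4.06-fold lower (edgeR adjusted p = 0.000632 and 0.000734).

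Of the 8 Sertoli-enriched genes that were higher in R, Sult1e1, Hsd3b6 and Lhcgr are known from Leydig cells. Sult1e1, an estrogen sulfotransferase, lay at 70.6, 164 and 79.0 CPM in R and at 0, 15.1 and 17.7 in UC, 6.79-fold higher without overlap (edgeR adjusted p = 0.00424). Hsd3b6, which makes testosterone precursors, lay at 106, 164 and 255 in R and 0, 105 and 35.3 in UC, 3.52-fold higher (edgeR adjusted p = 0.0179), and Lhcgr, the receptor of luteinizing hormone, was 4.01-fold higher (edgeR adjusted p = 0.0441). VC-R 1, a vehicle library whose Leydig markers summed to 10953 CPM, was higher still for Hsd3b6, at 618.

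The others were Apoc1, an apolipoprotein, 5.53-fold higher (edgeR adjusted p = 0.00853), Selenop, a selenium carrier, 3.02-fold higher (edgeR adjusted p = 0.0368), Serpinb1a, an elastase inhibitor (edgeR adjusted p = 0.0195), B2m and Cd36. Serpinb1a rested on 3 UMIs in UC, and the ratio of its pooled levels was 5.36, with an exact counting interval of 1.81 to 26.2. Of the 8 genes, 7 were also called higher in the other kept cells, and the part of Leydig RNA in these calls was not tested.

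Of the higher genes outside the Sertoli-enriched set, the 5 with the smallest adjusted p were Clgn, Gm32828, Spag16, Lrrc34 and Fsip2. Clgn, a chaperone of meiotic and haploid germ cells, lay at 375, 339.9 and 401 CPM in R and at 104, 97.9 and 150.2 in UC, 2.99-fold higher without overlap (edgeR adjusted p = 0.00163). Spag16, a protein of the sperm axoneme, was 3.05-fold higher, Fsip2, of the fibrous sheath of the sperm tail, 3.04-fold, Lrrc34 3.50-fold and Gm32828 4.39-fold (edgeR adjusted p = 0.00183, 0.00198, 0.00197 and 0.00163). In the other kept cells the log2 fold changes of Clgn and Spag16 were 0.03 and 0.36.

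**Figure D5:**
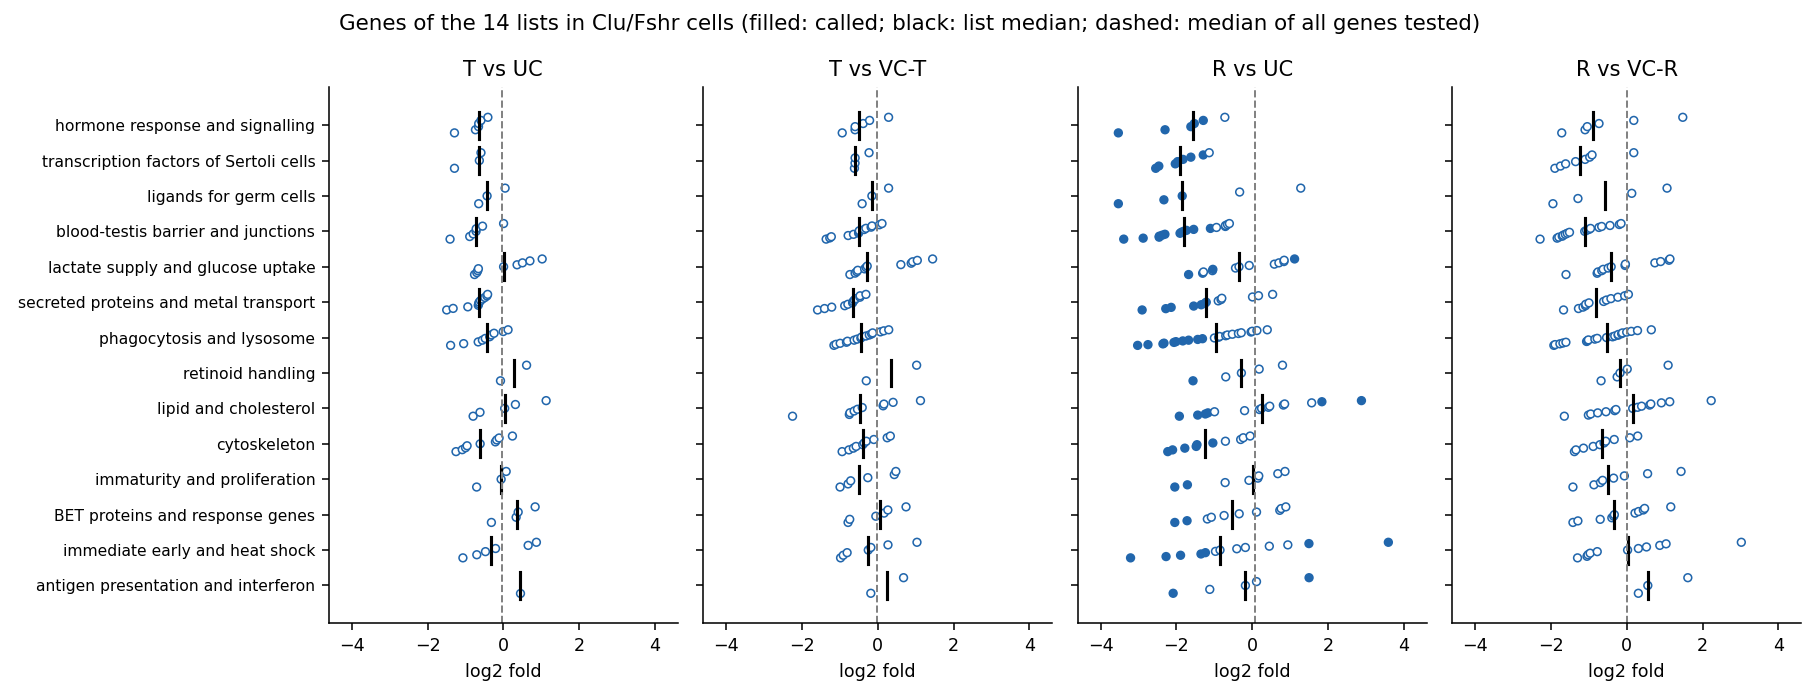
Log2 fold changes of the genes of the 14 function lists in Clu/Fshr+ cells, 1 point a gene, with called genes filled, list medians in black and the median of all genes tested dashed. In R against UC 63 genes are called lower and 6 higher, and in the other comparisons none is called.

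R was also compared with VC-R, the vehicle group of the same age. No gene of 8743 passed (0% called), with 1522 at an unadjusted p under 0.05 and 24 called by DESeq2. Among the list genes, 100 of 140 were below 0, with a median of -0.55, and all 17 junction genes were, with a median of -1.11. Of the Sertoli-enriched genes 1045 of 1226 were below 0, and of the genes outside that set 3323 of 7517. Whether the junction genes differ from the Sertoli-enriched genes was not tested. Cldn3 lay at 22.1, 45.7 and 57.4 CPM in VC-R and Inha at 132, 150.0 and 481, each above all R libraries, with log2 fold changes of R against VC-R of -2.29 and -1.71 (edgeR adjusted p = 0.0940 and 0.105). Ctsl lay at 419.6, 1528 and 3473 in VC-R, so that VC-R 1 was below every R library. VC-R 1 stood apart, with 15 Clu/Fshr+ cells of which 86.7% carried markers of another class.

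The count of called genes changed without that library. Without VC-R 1, 457 of 9885 genes were called, among them 23 list genes lower and 9 higher of 155. Without every cell that carried markers of another class, VC-R 1 was lost as well, with 2 of its cells left, and 1189 of 2387 were called in 3 libraries against 2, among them 40 list genes lower and 7 higher of 78. The part of the mixed cells and the part of that library in this count were not separated. Under a limit of 5% on sperm transcripts 287 genes were called, of which 260 were lower.

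T was compared with UC and with VC-T to ask what 3 wk of the drug did, and no gene of the Clu/Fshr+ cells passed in either comparison. Against UC 2948 genes were tested (0% called), with 270 at an unadjusted p under 0.05 and 6 called by DESeq2. Against VC-T 4497 genes were tested (0% called), with 604 at an unadjusted p under 0.05 and 1 called by DESeq2. In the other kept cells of the same libraries 3901 of 17686 and 4815 of 18960 genes tested were called. Those sums were far deeper, at 24643052, 19410279 and 8850391 UMIs in T 1 to T 3. The counts therefore do not compare the response of the Clu/Fshr+ cells with that of the other cells. T gave 52, 9 and 52 Clu/Fshr+ cells, with 165028, 59365 and 111785 UMIs.

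For Inha and Cldn11, T 1 and T 3 lay within the range of VC-T 2, VC-T 3 and UC. Inha lay at 333, 84.2 and 358 CPM in T, 296 and 389 in VC-T 2 and VC-T 3, and 207, 444 and 471 in UC. Cldn11 lay at 176, 16.8 and 215 in T, 159 and 257 in VC-T 2 and VC-T 3, and 104, 271 and 250.3 in UC. Kitl lay at 151, 33.7 and 224 in T, 134 and 187 in VC-T 2 and VC-T 3, and 82.8, 82.8 and 188 in UC, so that T 3 was above these controls. T 2, with its 9 cells, was below VC-T 2, VC-T 3 and all of UC for these 3 genes.

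Other genes lay lower in T, none past the test. Ctsl lay at 1224, 573 and 2058 in T against 2107 and 3611 in VC-T 2 and VC-T 3, with log2 fold changes of -1.22 against VC-T and -1.32 against UC (edgeR adjusted p = 0.339 and 0.496). Ldhb lay at 539, 269.5 and 653 in T, 700.0 and 737 in VC-T 2 and VC-T 3 and 704, 805 and 783 in UC, with log2 fold changes of -0.60 and -0.76. Both genes were below VC-T 2 and VC-T 3 in every T library, but Ctsl in T 3 was above UC 1.

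Cldn3 lay at 6.06, 16.8 and 17.9 in T, 41.8 and 61.4 in VC-T 2 and VC-T 3 and 62.1, 128 and 103 in UC, without overlap between these libraries. It rested on 1, 1 and 2 UMIs in T, was at 0 in VC-T 1 and was not tested. Ptgds, a prostaglandin synthase, lay at 206, 118 and 447 in T and 765 and 985 in VC-T 2 and VC-T 3, and 435, 1882 and 1136 in UC. The 4 genes Ctsl, Ldhb, Cldn3 and Ptgds were singled out after their values were seen.

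Of 76 list genes tested against UC, 56 were below 0, with a median of -0.52 against -0.03 over all genes, and of 105 tested against VC-T 79 were below 0, with a median of -0.41 against -0.01. Of the Sertoli-enriched genes, which were chosen from these same cells, 472 of 496 tested were below 0 against UC and 715 of 778 against VC-T, none called. Of the genes outside that set, 1062 of 2452 and 1561 of 3719 were below 0. Among the lists, secreted proteins were below 0 for all 11 tested against UC and all 12 against VC-T, hormone response for 6 of 6 and 5 of 6, and transcription factors for 3 of 3 and 4 of 4. Other lists were divided, with lactate supply below 0 for 4 of 9 and 7 of 12, lipid for 2 of 5 and 6 of 10, and BET for 1 of 4 and 3 of 6. Whether a list differs from the Sertoli-enriched genes was not tested. Apoe had a log2 fold change of -2.25 against VC-T (edgeR adjusted p = 0.226) and one of -4.27 in the other kept cells. With at least 5 markers required, which left T with 2 libraries, 74 of 2524 genes were called against UC, 40 higher and 34 lower. Without T 3, 282 of 6571 were called against VC-T, 178 higher and 104 lower.

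Sperm RNA in the Clu/Fshr+ cells was lower in T, and since it chose the cells it is a description. Prm1, the first protamine, lay at 1618, 1297 and 2263 CPM in T, 5264 and 5818 in VC-T 2 and VC-T 3 and 11904, 5698 and 3545 in UC. The log2 fold change of T against UC was -2.15 in these cells and -8.04 in the other kept cells. Of the BET proteins, Brd2 lay at 158, 236 and 170.0 in T and 145, 97.9 and 153 in UC. Neither comparison of T called a gene of that list.

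Clu/Fshr- cells held marker RNA in smaller amounts. Their 8 markers summed to 4121, 3859 and 2856 CPM in R and to 1001, 6858 and 3798 in UC, with Clu at 0 by the rule. No gene of 5225 was called in R against UC (0% called), with 234 at an unadjusted p under 0.05 and 0 called by DESeq2. Of 67 list genes tested 29 were below 0, with a median of 0.07, and the 292 Sertoli-enriched genes tested had a median of 0.27. Whether the comparison differs between Clu/Fshr+ and Clu/Fshr- cells was not tested.

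Function genes were low in Clu/Fshr- cells of the controls too. Ctsl lay at 176, 168 and 145 CPM in R and at 70.1, 241 and 294 in UC, a log2 fold change of -0.18. Inha lay at 36.1, 30.5 and 27.2 in R and at 20.0, 145 and 79.1 in UC, a log2 fold change of -0.95. For both genes R lay within the range of UC. Inha was detected in a median of 9.73% of Clu/Fshr- cells and Cldn11 in 3.14%, against 1.37% and 0.514% of spermatocyte-marker cells. The 5 spermatozoon markers summed to 6119 to 9153 CPM in R and 2329 to 11784 in UC.

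In T the Clu/Fshr- cells numbered 7, 1 and 4, so only T 1 reached the minimum of 5 cells. The fit of that library against 3 UC libraries, which assumes that T 1 varies as UC does, called no gene of 1988 (0% called), with 66 at an unadjusted p under 0.05 and 0 called by DESeq2. The 8 markers summed to 1418 CPM there, from 24681 UMIs in all.

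Beta-defensin RNA, secreted in the male tract, was abundant in the Clu/Fshr+ cells. Defb19 lay at 2784, 2186 and 1843 CPM in R and 2774, 4479 and 4416 in UC. Defb36 lay at 436, 286 and 301 in R and 331, 595 and 771 in UC, and its log2 fold change of -0.80 did not pass.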

How the data were processed

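Per the labels and the methods, the authors made 10x Genomics 3′ libraries from 1 dissociated testis a mouse and deposited raw UMI counts per gene and barcode (mm10; Cell Ranger 3.0.0 in the submitters' processing notes, 7.0.0 in the matrix headers; intron counting not given in the sources used here). Their ambient RNA and doublet corrections are not in these counts. The cells and gene lists were chosen with earlier results of these data known.

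Here counts were summed over the chosen cells of each library with at least 5 of them and fitted by edgeR 4.0.16 (R 4.3.3; quasi-likelihood test, TMM, filterByExpr, Benjamini-Hochberg adjustment). Genes of the rule and mitochondrial genes were not counted as called. Shares were tested by exact permutation over libraries on both sides (scipy 1.17.1). The script was tested on simulated data. Alternatives included DESeq2 1.42.0, other filters, other marker and sperm limits, and leaving out each library. Named genes are the 10 Sertoli-enriched and 5 other called genes with the smallest adjusted p in each direction and the called genes of the lists, without a few genes that are not reported here. Positions are those of GENCODE vM21. Levels are UMIs per 1000000 UMIs of the summed cells (CPM).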

Additional observations from a re-analysis of the deposited data

Results flagged for a closer look

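Mean UMIs per Clu/Fshr+ cell were 8539 in VC-R 2, far above the other 5 control libraries of R, with a gap of 0.797 of the range of the 6 libraries against a critical value of 0.625. Chance flags about 1 group in 20 by this measure.

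The shares of Sertoli-marker cells went opposite ways in T and in R against their controls, and these differences between T and R were not tested. As a percent of kept cells, the difference from the controls was -1.77 in T and 5.89 in R for all Sertoli-marker cells, and -1.04 in T and 2.68 in R for Clu/Fshr+ cells. As a percent of the Sertoli-marker cells, Clu/Fshr+ cells differed from the controls by 16.8 in T and by -15.4 in R. T and R have UC in common among their controls.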

How the results depend on the processing

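In Clu/Fshr+ cells of R against UC, the count of called genes was 1668 with DESeq2's size factors, 1256 with its test and 1247 to 2291 in other settings within 1.5 times of 1696. It was 2550 with no filter on low counts (1301 higher, 1249 lower), which moved the median of all genes to 0.71. It was 1125 without cells holding markers of another class, and 323 (without UC 3) to 3291 (without UC 1) when a library was left out. Calls were split about evenly between higher and lower also with at least 5 markers (1046 and 954) and with sperm transcripts under 5% (1138 and 1145). The log2 fold changes of the named genes kept their direction in every alternative, but 49 of 93 no longer passed without UC 3 and 24 of 86 without R 3.

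The replicate number as a block gave 633 called genes in R against UC, 4 in T against UC and 1 in T against VC-T, and 29 of 93 named genes no longer passed. Same-numbered libraries deviated together in T and VC-T (correlations 0.38 and 0.37, 2 pairs) but not in T and UC (-0.12, -0.39 and 0.38), R and UC (0.00398, 0.16 and -0.11) or R and VC-R (-0.19, -0.08 and -0.29), so the numbers were not taken to pair mice.

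Against VC-R, R gave 24 called genes with DESeq2, 503 with no filter on low counts, 166 with a minimum count of 3, 2 with at least 4 and 2 with at least 5 markers, 287 and 370 with sperm transcripts under 5% and 2%, 1189 without cells of another class, and 0 to 457 (without VC-R 1) when a library was left out. T against UC gave 6 with DESeq2, 8 with no filter, 74 with at least 5 markers, and 1 with sperm transcripts under 2% and 1 without cells of another class. T against VC-T gave 1 with DESeq2, 26 with no filter, 9 with a minimum of 10 cells, 11 and 4 with at least 4 and 5 markers, and 0 to 282 (without T 3) when a library was left out. In Clu/Fshr- cells, R against UC gave 5 with no filter, 2 with a minimum count of 3, 46 with at least 4 markers (against 1 UC library), 10 with sperm transcripts under 5%, 5 without cells of another class, and 0 to 14 (without UC 1) when a library was left out, and T against UC gave 0 in its 12 alternatives. The block, the minimum of 10 cells, the stricter marker rules and the set without another class could not be fitted for T in Clu/Fshr- cells, nor at least 5 markers for R. The causes were not tested.

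The differences in share of kept cells kept their direction in all alternatives. Clu/Fshr+ cells as a percent of Sertoli-marker cells turned to 1.34 points in R with sperm transcripts under 2%. Mean UMIs per Clu/Fshr+ cell changed sign in T with sperm transcripts under 2% (-38.9) or without a limit (-490.5), without cells of another class (-430.1), without VC-T 1 (-145) and over a range of -1101 (without T 2) to 1122 when a library was left out. In R they changed sign with the vehicle controls alone (-371), at least 4 (-348) or 5 markers (-230.4), without cells of another class (-811), without VC-R 1 (-4.97) and over a range of -138 (without R 3) to 1099 when a library was left out. The mitochondrial share in R changed sign with at least 5 markers (0.255), without VC-R 2 (0.109) and over a range of -1.06 to 0.138 (without R 3). Depth limits T 2, VC-R 1 and UC 1 most, where 1 UMI is worth 16.8, 22.1 and 20.7 CPM.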
